A study of Homo sapiens with 12 samples.

Results

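Distal 6p, the end of the short arm of human chromosome 6 from band 6p25 to band 6p22.3, was described in control K562 cells through the positions of GATA1 and TAL1 intervals. K562 is a human erythroleukemia line with erythroid features. The members were chosen by position, as every distinct interval of the deposited GATA1 and TAL1 lists whose centre lies on chromosome 6 below position 25200000 (hg19, the end of band 6p22.3). They number 490 of 24658 distinct intervals. The region itself was selected with the crowding of intervals on 6p already known, so densities and shares are given as descriptions without a test. All intervals come from cells with the genotype control (the labels do not say whether these received a vector), 1 chromatin immunoprecipitation library with a GATA1 antibody (sc-1233) and 1 with a TAL1 antibody (sc-12984). The series also holds cells in which a lentiviral short hairpin RNA lowered GATA1 or TAL1, libraries for LDB1 and H3K27ac, and an input, none of which were analysed here. No value has a replicate, and the intervals in brackets below are exact (Clopper-Pearson) 95% intervals that cover counting error only and treat neighbouring intervals as independent, which they need not be. The lists give no height, score or read number, so the depth behind each interval is unknown.

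GATA1 is a zinc finger factor that recognises GATA motifs and is required for red cell and megakaryocyte formation. TAL1 belongs to the basic helix-loop-helix class, binds E-boxes with an E protein partner and joins GATA1 through the bridging proteins LMO2 and LDB1. Sites that carry both factors include many erythroid enhancers, which is why an interval found in both lists is set apart below from an interval found in 1 list. In RefSeq (GRCh38.p14) the short arm carries, counted inward from its end, IRF4, FOXC1, SERPINB9, F13A1, RREB1, BMP6, GCNT2, TMEM14C, EDN1, CD83, JARID2, GMPR, DEK, E2F3 and SOX4, among other genes. Several have known roles in blood cells or in iron uptake. F13A1 encodes the A subunit of coagulation factor XIII, made in megakaryocytes and monocytes. BMP6 encodes a signal that raises hepcidin and so limits iron uptake. GCNT2 encodes the enzyme that makes the I blood group antigen, and TMEM14C a mitochondrial protein needed for heme synthesis in erythroid cells. JARID2 is a partner of Polycomb repressive complex 2, and E2F3 a cell cycle transcription factor. The lists carry hg19 positions and name no genes, so no interval was assigned to a gene and these names are background.

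Distal 6p was crowded with intervals of both factors. It held 19.4 intervals per Mb, against 8.07 per Mb on the long arm (6q, centres above position 61000000, 889 intervals), a ratio of 2.41 (2.15 to 2.69). GATA1 intervals numbered 19 per Mb on distal 6p and 7.63 per Mb on 6q, and TAL1 intervals 6.11 and 2.66 per Mb in the same order. The ratio was 2.49 (2.22 to 2.79) for GATA1 and 2.30 (1.88 to 2.80) for TAL1, so both lists were denser by similar factors. Distal 6p makes up 0.83% of chromosomes 1 to 22 and X and held 1.99% of their intervals. The intervals covered 164 kb, or 0.651% of distal 6p, against 0.255% of 6q. The rest of 6p, from band 6p22.2 to the centromere, held 21.8 intervals per Mb (782 intervals), so the crowding did not stop at the edge used here. The copy number of these stretches in K562 was not examined. Whether it bears on the densities, runs and gaps given here was not tested.

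Of the 490 members, 142 were in both lists, 336 in the GATA1 list only and 12 in the TAL1 list only. The 6q intervals divided into 244 in both lists, 596 in the GATA1 list only and 49 in the TAL1 list only. GATA1-only intervals were the majority in both places, at 68.6% (64.3 to 72.7%) of distal 6p and 67.0% (63.8 to 70.1%) of 6q. Intervals in both lists made up 29% (25 to 33.2%) of distal 6p and 27.4% (24.5 to 30.5%) of 6q. TAL1-only intervals were the scarce class, at 2.45% (1.27 to 4.24%) of distal 6p, 5.51% (4.11 to 7.22%) of 6q and 7.65% (7.32 to 7.98%) of chromosomes 1 to 22 and X.

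The make-up can be read from the side of each factor. Of the 154 TAL1 intervals of distal 6p, 142 were also GATA1 intervals, or 92.2% (86.8 to 95.9%). On 6q the share was 83.3% (78.5 to 87.4%, 244 of 293), on the rest of 6p 85.4% (79.9 to 89.8%, 181 of 212), and over chromosomes 1 to 22 and X 78.9%. The interval of distal 6p lay above that of the chromosomes together and overlapped those of 6q and of the rest of 6p. Of the 478 GATA1 intervals of distal 6p, 142 were also TAL1 intervals, or 29.7% (25.6 to 34%). This was close to 29% (26.0 to 32.2%) on 6q and to 30.9% over chromosomes 1 to 22 and X, while the rest of 6p had 24.1% (21.1 to 27.3%). The large number of GATA1 intervals on distal 6p thus went with a proportionate number of TAL1 intervals, nearly all of them at listed GATA1 positions. Intervals that lie close together share their surroundings, so these shares carry less information than their counts.

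**Figure D1:**
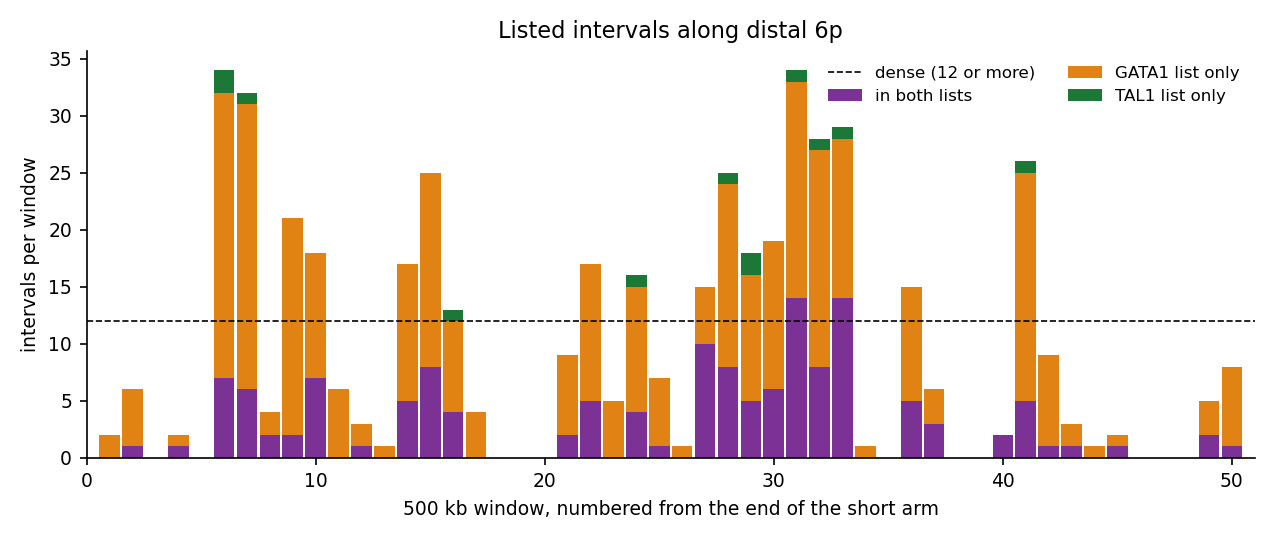
Intervals in each of the 50 whole 500 kb windows of distal 6p (vertical axis, count), numbered from the end of the short arm (horizontal axis), stacked by list. The dashed line marks 12 intervals, the threshold for a dense window; 18 windows reach it, 7 of them in a row from window 27 to window 33, and 11 windows hold no interval.

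Intervals on distal 6p were crowded into a minority of its length. The region was cut into 500 kb windows counted from position 1, which gives 50 whole windows and a last 200 kb that held 1 interval. A window was called dense at 12 or more intervals, the 90th percentile of the 6064 whole windows of chromosomes 1 to 22 and X, and empty at 0. On distal 6p 18 of 50 windows were dense (36%), against 22 of 220 on 6q (10%) and 11.2% over chromosomes 1 to 22 and X. Empty windows numbered 11 of 50 (22%), against 85 of 220 on 6q (38.6%) and 43.4% over those chromosomes. The 18 dense windows held 402 of the 489 intervals that lie in whole windows (82.2%), while on 6q dense windows held 397 of 889 (44.7%). The threshold was the same in both places, while the mean window held 9.78 intervals on distal 6p and 4.04 on 6q. These shares therefore do not rank the regions by how concentrated their intervals were. The rest of 6p had a similar make-up, with 27 of 71 windows dense (38.0%), 18 empty (25.4%) and 83.7% of its intervals in dense windows. The median window had 5.5 intervals on distal 6p and 2 on 6q, and the fullest had 34 and 30 in the same order. Unsequenced and centromeric stretches were not masked, so some empty windows elsewhere could hold no interval by construction. With windows on centromeric, variable or stalk bands left out, 39.5% of windows over those chromosomes and 37.2% on 6q were empty.

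**Figure D2:**
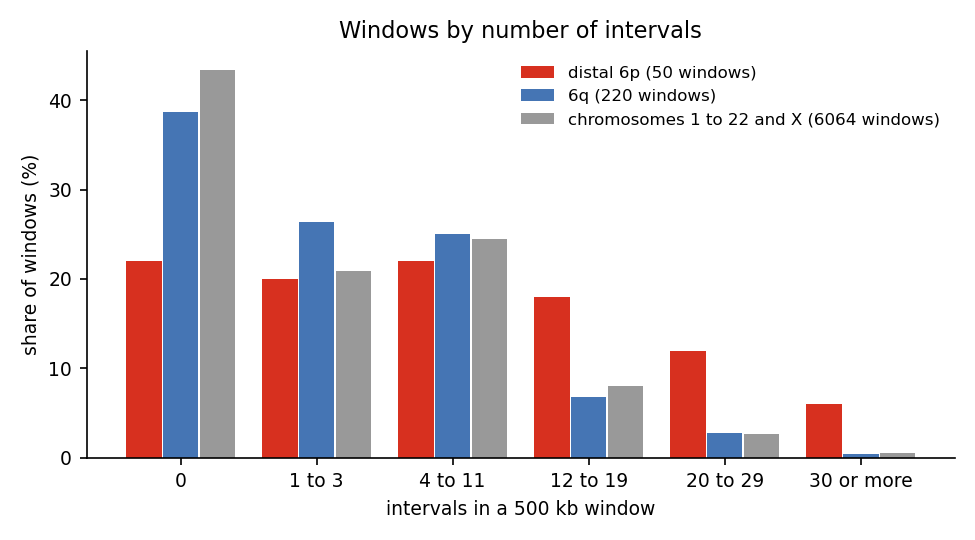
Share of whole 500 kb windows (vertical axis, percent) by the number of intervals they hold (horizontal axis), for distal 6p, 6q and chromosomes 1 to 22 and X. Windows with no interval make up 22% of distal 6p and 38.6% of 6q, and windows with 30 or more make up 6% and 0.455%.

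The dense windows formed 8 runs, and the longest of them stood apart in length. It covered windows 27 to 33 (13000001 to 16500000, from band 6p24.1 across 6p23 into 6p22.3). Its 7 windows held 15, 25, 18, 19, 34, 28 and 29 intervals in order along the arm, 168 in all. It took up 13.9% of distal 6p and held 34.3% of its intervals and 46.1% of its TAL1 intervals. Of 434 dense runs on chromosomes 1 to 22 and X, 6 were 7 windows long or longer, and 2 of these were on chromosome 6. The other, at 33000001 to 37500000, lies outside distal 6p and was 9 windows long. On 6q the longest run was 3 windows.

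The other runs of distal 6p were short. The first, windows 6 and 7 (2500001 to 3500000, band 6p25.2), was the densest of the 8, with 66 intervals in 1 Mb. A run across the border of 6p25.2 and 6p25.1 (windows 9 and 10) held 39 intervals, and 1 from 6p25.1 into 6p24.3 (windows 14 to 16, 6500001 to 8000000) held 55. The remaining 4 runs were single windows, with 17 intervals in window 22, 16 in window 24, 15 in window 36 and 26 in window 41. Windows 6 and 31, each with 34 intervals, tied at rank 13 among the 6064 windows. By TAL1 intervals alone, windows 31 and 33, with 15 each, tied at rank 8, and no dense window of distal 6p held fewer than 2.

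Distal 6p also held long stretches with no interval of either factor. The longest lay beyond the last dense run, and ran from 22026419 to 24400727 within 6p22.3, which is 2374 kb, and is bounded on both sides by an interval in both lists. Others measured 1666 kb in 6p24.3 (8436129 to 10102136) and 1480 kb in 6p22.3 (18324763 to 19804949). In all, 10 gaps exceeded 500 kb and together made up 42.7% of distal 6p, against 45 gaps and 56.8% on 6q, where the longest was 4702 kb. Of the 11 empty windows, 6 lay between dense runs, windows 3 and 5 before the first and windows 46 to 48 after the last. Outside the long gaps distal 6p held 34 intervals per Mb, against 18.7 per Mb on 6q, and 33.2 per Mb on the rest of 6p. Such gaps were about as frequent per length, at 0.397 per Mb on distal 6p and 0.409 per Mb on 6q, but averaged 1.08 Mb on distal 6p and 1.39 Mb on 6q. The median distance between neighbouring intervals was 10.8 kb on distal 6p (quartiles 2.84 and 36 kb) and 18.2 kb on 6q (3.37 and 75.4 kb). Among neighbours, 19.8% lay within 2 kb on distal 6p and 20.9% on 6q, so the closest spacing was similar.

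By cytogenetic band the contrast was steepest near the end of the arm. The terminal band 6p25.3, where IRF4 and FOXC1 are known to lie, held 10 intervals in 2.3 Mb (4.35 per Mb), the fewest per Mb of the 8 bands. The next band, 6p25.2, with a group of serpin genes, held 84 in 1.9 Mb (44.2 per Mb). Band 6p23, with CD83, was the fullest at 46.1 per Mb (83 intervals in 1.8 Mb). The bands between held 19.7 per Mb (6p25.1, with F13A1), 13.7 per Mb (6p24.3, with BMP6), 21.0 per Mb (6p24.2, with TMEM14C) and 19.4 per Mb (6p24.1, with EDN1). Band 6p22.3, which is known to carry JARID2, GMPR, DEK, E2F3 and SOX4, held 152 intervals in 10 Mb, or 15.2 per Mb, and 6 of the 11 empty windows. The gene names only place the bands. Whether a named gene lies among these intervals or in a gap was not examined, and no density belongs to a gene. Staining did not order the bands by density, since 6p25.3 and 6p23 are both unstained.

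GATA1 intervals were accompanied by TAL1 to different degrees along the arm. In the longest dense run 65 of 162 GATA1 intervals were also TAL1 intervals (40.1%, 32.5 to 48.1%). In the 5 dense runs closer to the end of the arm the share was 25.5% (19.5 to 32.4%, 48 of 188), and in the 2 runs beyond it 25% (12.7 to 41.2%, 10 of 40). GATA1 density differed little between these groups, at 46.3 per Mb in the longest run, 41.8 before it and 40 after it, whereas TAL1 density was 20.3, 11.8 and 11 per Mb. Interval width, with which the share also varied (below), was not matched between the groups. Among intervals of at least 297 bp the share was 53.8% (43.1 to 64.2%) in the longest run. In the other dense runs it was 40.7% (31.9 to 49.9%). The densest run, at 6p25.2, had 63 GATA1 intervals per Mb and a share of 20.6% (11.5 to 32.7%). The 95% intervals of these 2 runs overlapped. The split and this pair of runs were chosen after the values were seen, and no difference was tested. Across single dense windows the share ranged between 9.52% (window 9) and 66.7% (window 27, 10 of 15), with a median of 31.4%. In windows that were not dense it was 21.8% (13.7 to 32.0%, 19 of 87), and all 19 TAL1 intervals there were also GATA1 intervals. Dense windows of 6q had 32.2% (27.5 to 37.1%) and those of chromosomes 1 to 22 and X 30.3%. Among the 6 dense runs of 7 or more windows on those chromosomes, the share ranged from 30.3% to 40.3%. The longest run of distal 6p ranked 2 among them.

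**Figure D3:**
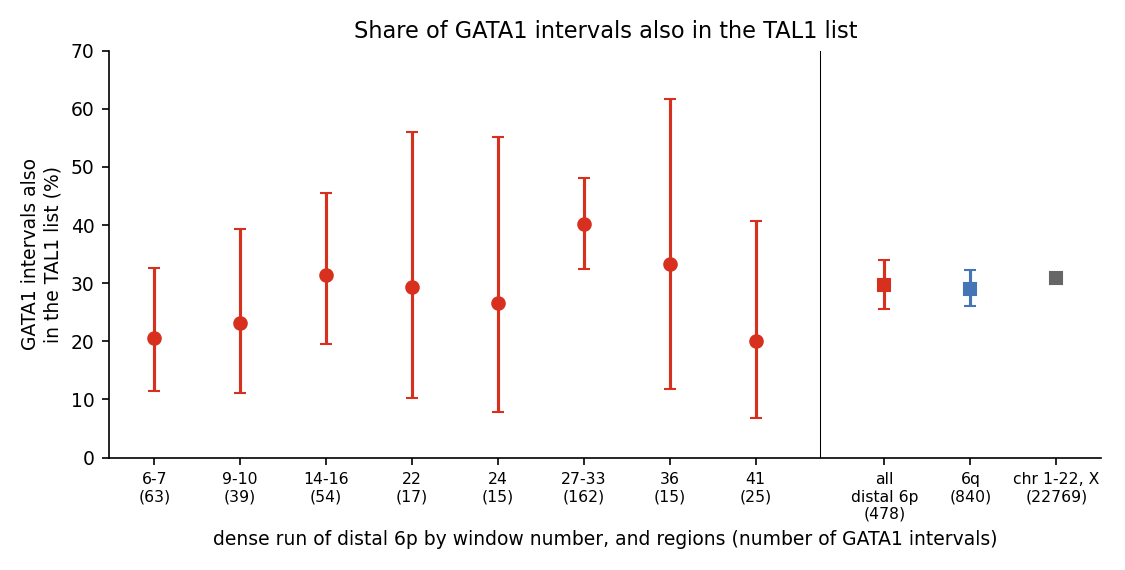
Share of GATA1 intervals that are also in the TAL1 list (vertical axis, percent) for each dense run of distal 6p, named by its windows, for all of distal 6p, for 6q and for chromosomes 1 to 22 and X, with the number of GATA1 intervals in brackets. Points are shares and bars exact 95% intervals; the run of windows 27 to 33 is at 40.1% and that of windows 6 and 7 at 20.6%.

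The share by band was counted on the same intervals, and was again lower in 6p25.2 than in 6p23. It was 19.8% (11.7 to 30.1%) in 6p25.2, 24.6% (14.1 to 37.8%) in 6p25.1 and 31.9% (19.1 to 47.1%) in 6p24.3. It was 41.2% (24.6 to 59.3%) in 6p24.1, 38.0% (27.3 to 49.6%) in 6p23 and 31.5% (24.2 to 39.7%) in 6p22.3. The small bands 6p25.3 and 6p24.2, with 10 and 21 GATA1 intervals, had 20% and 19%. These intervals overlap between most bands.

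On a finer scale, intervals with gaps of at most 12500 bp were joined into clusters. Distal 6p held 56 clusters of 3 or more intervals (2.22 per Mb), with 54.3% of its intervals, against 84 clusters on 6q (0.763 per Mb), with 42.3%. The rest of 6p held 109 clusters (3.04 per Mb), with 63.0% of its intervals. GATA1 and TAL1 intervals occurred together in 41 clusters, and the other 15 held GATA1 without TAL1. On distal 6p, GATA1 intervals in clusters were TAL1 intervals in 30.8% of cases (25.3 to 36.8%), and those standing alone in 30.1% (22.1 to 39.0%). On 6q the same shares were 34.9% (30 to 40.1%) in clusters and 21.0% (16.5 to 26.1%) alone. Whether this contrast differs between the arms was not tested.

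Of the 56 clusters, 4 held 8 or more intervals, and they differed in make-up. The largest, at 6p25.2 (2903070 to 2999980), was mainly a GATA1 array, in which 4 of 23 GATA1 intervals (17.4%) were also TAL1 intervals. Those 4 started 29.5, 59.9, 84.4 and 87.7 kb into the cluster, and measured 436, 328, 270 and 499 bp. Its narrowest GATA1-only interval measured 85 bp and its widest 464 bp. The second, at 6p23 (15058954 to 15107930), held 13 GATA1 intervals in 49.0 kb, of which 9 were in both lists (69.2%). Its last 7 intervals, from 15086871 on, were all in both lists, and the GATA1-only members lay among the first 6. The third, at 6p22.3 (20401430 to 20459156), held 11 GATA1 intervals with 2 in both lists, and the fourth (15895802 to 15923232) held 9 with 4 in both lists. Among clusters of 6 intervals, those at 3148590 to 3166802 and at 4008760 to 4032941, both in 6p25.2, held no TAL1 interval.

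**Figure D4:**
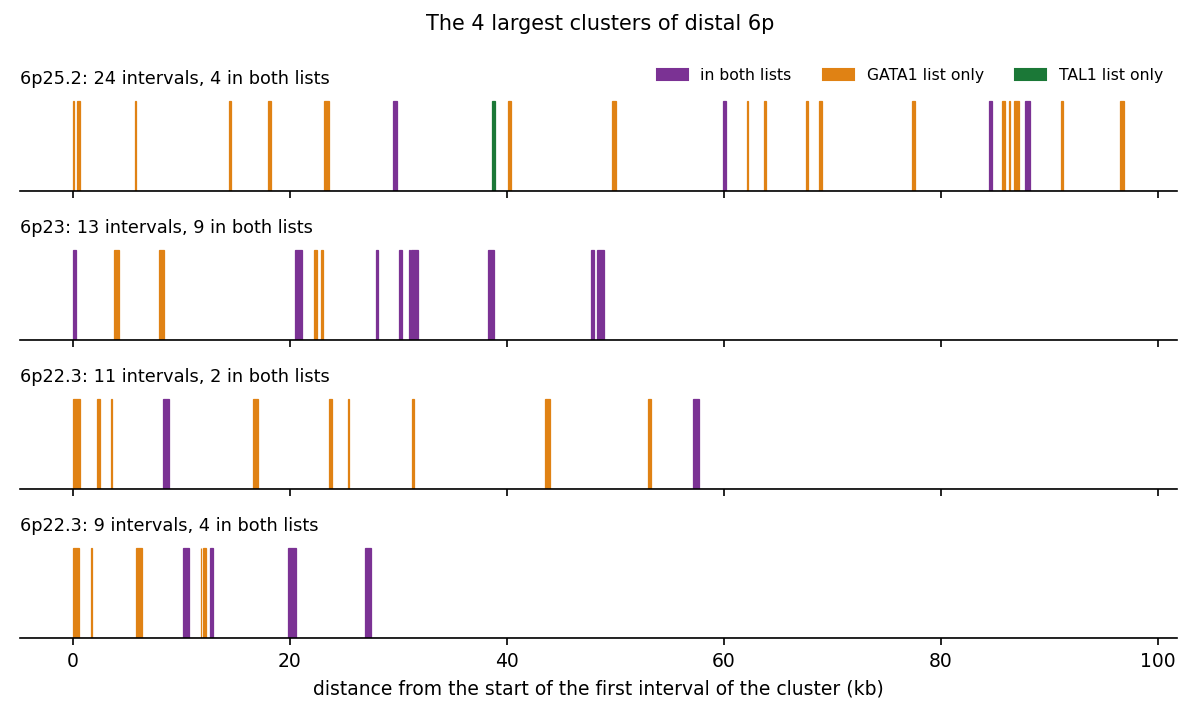
Positions of all members of the 4 largest clusters of distal 6p, as distance in kb from the first interval of each cluster (horizontal axis), drawn to scale in width and coloured by list; bar height carries no value. The 6p25.2 cluster has 4 of 24 intervals in both lists and the 6p23 cluster 9 of 13.

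Intervals in both lists were the widest class on distal 6p. Their median width was 417.5 bp (quartiles 315.75 and 529.75 bp), against 265 bp (161.25 and 393 bp) for GATA1-only intervals, and on 6q the medians were 374.5 and 248.5 bp. The widest interval in both lists measured 913 bp (1702783 to 1703695, 6p25.3), and the widest GATA1-only interval 962 bp (24721040 to 24722001, 6p22.3). No source used here says how the boundaries were set, and a shared interval has the same boundaries in both lists, so width is a property of the listed interval and not of either factor. Among GATA1 intervals up to 226 bp wide, the lowest of 3 width classes of equal size over all intervals, 8.23% (4.45 to 13.7%, 13 of 158) were also TAL1 intervals. The share was 33.1% (25.4 to 41.6%) from there to 376 bp and 45.9% (38.4 to 53.4%) above it. On 6q the shares were 11.6%, 32.2% and 45.7% in the same order.

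Neighbouring GATA1 intervals at the shortest distances often had the same TAL1 status. Of the 44 pairs of neighbouring GATA1 intervals at most 500 bp apart, the second was a TAL1 interval in 7 of 10 pairs (70%) whose first member was, and in 7 of 34 (20.6%) whose first member was not. On 6q these shares were 75% of 24 pairs and 10% of 70 pairs. At 500 to 2000 bp the counts were 5 of 19 pairs (26.3%) and 6 of 27 pairs on distal 6p, and the shares 34.3% and 34.8% on 6q. Pairs were too few for finer distances.

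Most of the 12 TAL1-only intervals of distal 6p lay within 10 kb of a GATA1 interval. The median distance to the nearest GATA1 interval was 4.08 kb, against 11.6 kb for the 49 of 6q, and 8 of 12 (66.7%, 34.9 to 90.1%) lay within 10 kb, against 22 of 49 (44.9%, 30.7 to 59.8%). The farthest on distal 6p was 26.0 kb away, while the farthest on 6q was 960.3 kb away. With 12 intervals the shares are too uncertain to separate the arms. GATA1 intervals also lay closer together on distal 6p, with a median gap of 11.2 kb against 18.7 kb on 6q. These distances were not set against that spacing.

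By distance, 4 of the 12 lay within 1 kb of a GATA1 interval. These were at 2841566 to 2841901 (336 bp wide, 87 bp away), 7899390 to 7899595 (206 bp, 227 bp away), 14477948 to 14478032 (85 bp, 479 bp away) and 14451885 to 14452227 (343 bp, 687 bp away). A further 4 lay between 1 and 10 kb away, at 2941707 to 2941932 inside the largest cluster, 15160131 to 15160353, 3203421 to 3203970 and 13863977 to 13864380. The last 4 lay 10.8 to 26.0 kb away, at 16098024 to 16098358, 20475333 to 20475717, 11810289 to 11810448 and 15698688 to 15699277. The last of these was the widest TAL1-only interval, at 590 bp, and the longest dense run held 6 of the 12.

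At the inner edge of the region, the last member was a GATA1-only interval of 121 bp at 25036421 to 25036541. The first interval beyond position 25200000 was a TAL1-only interval of 106 bp at 25207929 to 25208034, followed by an interval in both lists at 25535590 to 25535793. The last member ended 163 kb before the edge. At the outer end, the first member started at 341308.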

How the data were processed

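The authors deposited, for each of the 2 libraries used, a list of intervals with a chromosome, a start and an end in 3 columns and no header. Per the submitters' processing notes, Trimmomatic, Bowtie2, MACS2, deepTools and build hg19 were used, with no version or threshold given in the sources used here. Chromatin was fragmented with micrococcal nuclease, per the labels' protocols. Starts were taken as counted from 0 in the lists and are printed counted from 1. Distinct rows were merged across lists. An interval counted as shared when both lists hold it with identical boundaries. Overlapping pairs of distinct intervals numbered 0 on chromosome 6. The 142 shared intervals that bedtools 2.31.1 found on distal 6p at an overlap of 1 bp therefore could not differ. How the common boundaries were made is not stated, and shared status depends on it. Bands were those of circlize 0.4.16. Counts, windows, clusters and exact intervals were computed with Python 3.11.15, pandas 2.3.3 and scipy 1.17.1, after tests on simulated lists, and figures with matplotlib 3.10.9. The 4 mitochondrial intervals were left out of all rates. No test was run, since the region, its members and its comparisons were chosen with earlier results of these data known. Intervals were named where they bound a run or gap, belong to a large cluster, are extreme in width, are TAL1-only or lie at the edge. No genome of build hg19 was used, so no sequence is printed.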

Additional observations from a re-analysis of the deposited data

How the results depend on the processing

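Of 46 alternative values for 11 results, 7 could not change: 4 for an overlap of 50%, since shared intervals have identical boundaries, and 3 for ending the region at the start of 6p22.2, which is the edge used. Of the other 39, 24 stayed within the exact interval of the value reported or, for counts and lengths, within 1.5 times of it. Some were chosen after the data were seen, namely all those for the dense runs, the ratio without the centromeric band of 6q and the dense threshold without heterochromatic windows. The share of TAL1 intervals in the GATA1 list on distal 6p ranged from 92.2% to 95.7% over all its alternatives. Keeping only intervals of at least 297 bp, the median width, changed most. It put the share of GATA1 intervals in the TAL1 list at 43.4% on distal 6p and 42.9% on 6q, at 53.8% in the longest dense run and 40.7% in the others, the share of TAL1 intervals in the GATA1 list on 6q at 87.8%, the density ratio at 2.82 and the clusters at 21. Shared intervals are wider in these lists, so this filter kept a larger part of them than of the other intervals, which raises the shares. Sites joined within 2 kb gave 34.1% of GATA1 sites on distal 6p, and neighbours within 1 kb gave 33.1% on 6q. Windows of 250 kb gave 31 dense and 34 empty of 100, and windows of 1 Mb gave 10 and 2 of 25. Windows of 500 kb gave 18 and 11 of 50. These were compared as counts, not as shares, although the number of windows differs. Windows with no TAL1 interval numbered 19, and clusters joined at 5 kb 36. No paired analysis was possible because each factor has 1 library. Depth is unknown, so an absent interval does not show that a factor was absent.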
